A study of Homo sapiens with 18 samples.

Results

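This report describes SK-N-MC cells kept for 4 weeks in 50 nM rotenone against the same cells kept for 4 weeks in vehicle, across the genes of the Affymetrix HG-U133A array. The samples were chosen by their labels alone, as the 3 arrays labelled 50 nM at 4 weeks (4w50nM) and the 3 labelled 0 nM at 4 weeks (4w0nM), and make 6 of the 18 arrays of the series. SK-N-MC is a human line that the labels call a neuroepithelioma. All 6 groups of the series, 0, 5 or 50 nM for 1 or 4 weeks with 3 arrays each, were grown in Eagle's medium with glucose and serum and without pyruvate. The vehicle was 0.05% ethanol, and per the labels 50 nM was toxic enough to kill some of the cultured cells, so that the arrays show the cells that were still present at harvest. Each array was hybridized with RNA of 5 dishes that had been pooled, and the series' design text describes 3 experiments. The model is 1 tumour line, and a change in the cells' make-up and a change within each cell cannot be told apart in its RNA.

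Rotenone is a plant compound that blocks electron transfer from complex I of the mitochondrial respiratory chain to ubiquinone and also binds tubulin, so that microtubules come apart. A blocked complex I leaves cells with less ATP from respiration and with more reactive oxygen species. Chronic rotenone is a standard way to model Parkinson disease, in which complex I activity is low and dopamine neurons are lost. Cells under mitochondrial stress commonly turn on ATF4, a transcription factor that raises amino acid synthesis and transport genes together with CHOP, the product of DDIT3.

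Values are the authors' linear expression indexes, called signals here. A gene is represented by its brightest probe set, and 9162 genes reached a signal of 50 on 3 or more of the 18 arrays. Differences are given on the log2 scale after signals under 16 were set to 16. A gene is called when limma's adjusted p, by Benjamini and Hochberg over all 9162 genes, is below 0.05. Where no other tool is named, an adjusted p is limma's.

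Several measured facts about the arrays stand beside every result. The hybridization controls, RNAs added in equal amount to every array, averaged 9.92 ± 0.11 (log2 signal, SD, n = 3 arrays) on the 4w0nM arrays and 8.96 ± 0.05 on the 4w50nM arrays, a ratio of 0.512. The log2 ratio of the 3' to the 5' probe set of ACTB, which rises as RNA is shortened, was -0.06 ± 0.03 and 0.17 ± 0.04. The exact two-sided permutation test gave p = 0.1 for each, the smallest p that 3 arrays against 3 allow. The same ratio of GAPDH was -0.02 ± 0.04 and -0.03 ± 0.07 (exact permutation p = 0.9). The part of these shifts in the results below was not tested. At 1 week the hybridization controls averaged 9.94, 9.97 and 9.86 with 0, 5 and 50 nM, and at 4 weeks 8.87 ± 0.21 with 5 nM. Among the 4-week groups a low level thus went with rotenone, so that a difference in hybridization cannot be told apart from the treatment. On 4w50nM replicate 3 many changes were smaller than on its companions. Of the genes at least 2-fold higher in 4w50nM it lay between the vehicle mean and the other 4w50nM arrays for 469 of 527, and of those at least 2-fold lower for 307 of 390, against 52.4% of all genes tested. The markers of the labelled cell type were present. CD99, the surface protein by which Ewing family tumours are recognised, was at 3471, 3282 and 3189 with vehicle and 2151, 2067 and 2607 with 50 nM. The 15 markers of sympathoadrenal neuroblastoma were mixed. TH, PHOX2A, HAND2 and DDC stayed below 50 on all 18 arrays, while 10 were measured and summed to 1668 to 1843 with vehicle and 1613 to 1795 with 50 nM, with 0 higher and 3 lower. GATA2 averaged 663 and 812, HAND1 121 and 137, ISL1 111 and 152, and MYCN 138 and 103, in that order, none of the 4 passing the test and all named after their values were seen.

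After 4 weeks in 50 nM rotenone, 3782 of the 9162 genes were called, which is 41.3%. Of these, 2156 (23.5% of all genes tested) were higher and 1626 (17.7%) were lower than with vehicle. At least 2-fold, 527 genes (5.75%) were higher and 390 (4.26%) were lower. The 3 arrays of a group all lay above or all lay below those of the other for 60% of the genes tested, so that groups that do not overlap are the usual case here. The largest rises included a fatty acid-binding protein, a lipid flippase and transporters of amino acids, and the largest falls included fibronectin, a collagen, a small heat shock protein and a receptor for a neuronal growth factor.

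**Figure D1:**
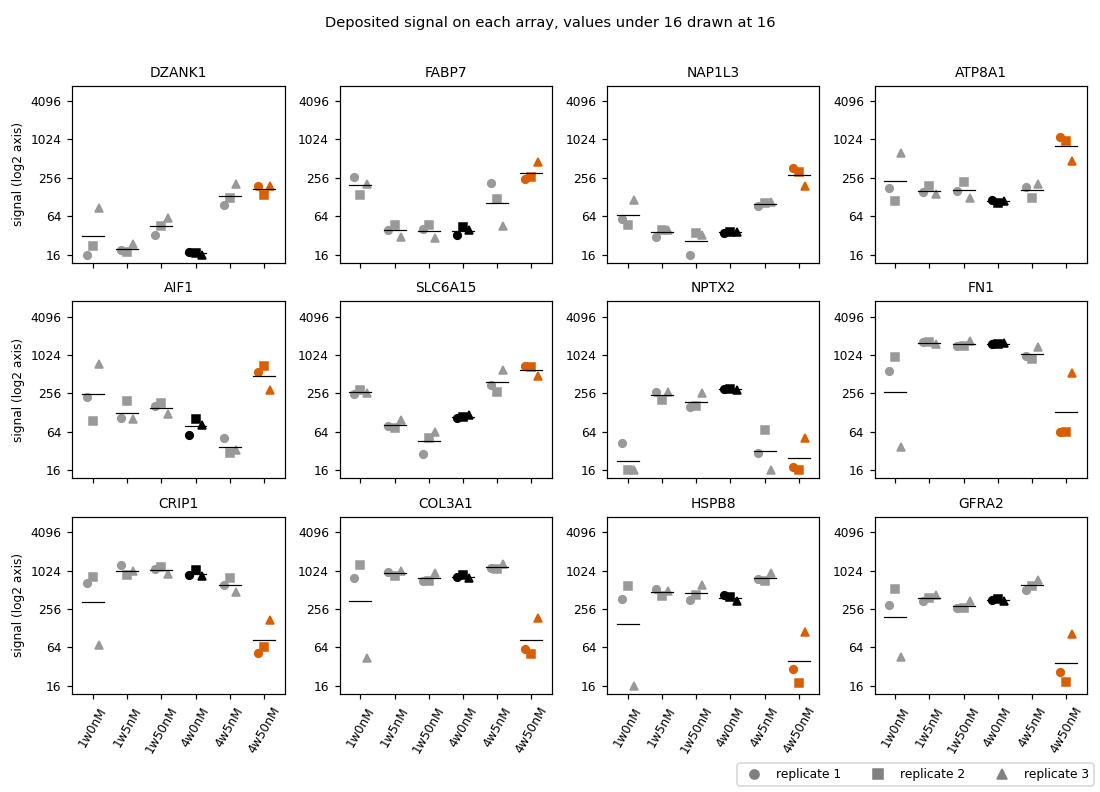
Deposited signal (log2 axis) of 12 of the genes with the largest rises and falls, on each of the 18 arrays. Symbols mark the replicate, horizontal lines the mean of the log2 values, black points the 4w0nM arrays and orange points the 4w50nM arrays. For FN1, COL3A1, HSPB8, GFRA2, AIF1 and ATP8A1, the third 4w50nM array lies closer to vehicle than the other two, and the third 1w0nM array lies at or near the level of the 4w50nM group.

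Among the rises, the fitted value was highest for DZANK1, which codes for a zinc ribbon and ankyrin repeat protein, but its vehicle signals lay at the floor of 16, so that the size of its rise depends on that floor. Its signal was 17.4, 16.8 and 14.2 on the vehicle arrays and 188, 139 and 194 on the 50 nM arrays (log2 fold change 3.36 ± 0.43 (SE), adjusted p = 1.71e-05). FABP7, the fatty acid-binding protein of radial glia, was at 32.5, 44.2 and 38.5 with vehicle and at 245, 263 and 459.9 with 50 nM (log2 fold change 3.02 ± 0.41 (SE), adjusted p = 2.66e-05). Vehicle arrays were near the lower end of the detectable range for FABP7 too, and no array of the groups overlapped. ATP8A1, a flippase that keeps phosphatidylserine on the inner face of membranes, went from 116, 102 and 112 to 1118, 964 and 477 (log2 fold change 2.86 ± 0.45 (SE), adjusted p = 9.3e-05). AIF1, an actin-bundling protein best known from microglia, went from 57.2, 102 and 81.3 to 553, 693 and 286 (log2 fold change 2.62 ± 0.51 (SE), adjusted p = 0.000619). For both of these the third 50 nM array was the lowest of its group and still above every vehicle array. Of the other AIF1 probe sets, 2 rose by 2.28 and 3.22 and 1 did not pass the test (-0.12).

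Transporters, a phospholipase and nuclear proteins were among the other large rises. SLC6A15, a transporter of neutral amino acids in neurons, was at 106, 109 and 119 with vehicle and 699.6, 655 and 481 with 50 nM, a rise of 2.44. SLC6A6, the taurine transporter, rose by 2.35. PLA2G4A, the cytosolic phospholipase that frees arachidonic acid, was under the floor of 16 on all 3 vehicle arrays and at 112, 97.0 and 59.9 with 50 nM, which against the floor is at least 5.42-fold higher. DNAJC15, a mitochondrial co-chaperone, was under the floor on 2 vehicle arrays and at 109.9, 83.0 and 82.8 with 50 nM. The nuclear genes of the group were NAP1L3, of the nucleosome assembly protein family (2.98), the homeobox gene MEOX1 (2.57) and the zinc finger factor KLF9 (2.30). BLZF1 (2.45), LAMP5 (2.41), CDK18 (2.31) and GAB2 (2.30) complete the 15 largest rises.

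Among the falls, NPTX2 and FN1 were the largest. NPTX2, a pentraxin secreted at synapses that clusters glutamate receptors, was at 303, 301 and 286 with vehicle and 18.2, 12.2 and 50.7 with 50 nM (log2 fold change -3.60 ± 0.47 (SE), adjusted p = 2.11e-05). FN1, fibronectin, was at 1548, 1503 and 1556 and 64.2, 63.9 and 533 (log2 fold change -3.56 ± 0.86 (SE), adjusted p = 0.00303). The vehicle arrays agreed closely for FN1, and the third 50 nM array stood between them and its companions. The log2 fold changes of its 4 other probe sets ran from -4.07 to -1.81, all of them called. COL3A1, a fibrillar collagen, was at 823, 872 and 794 and 60.1, 51.0 and 188 (log2 fold change -3.32 ± 0.78 (SE), adjusted p = 0.00265). HSPB8, a small heat shock protein that hands misfolded proteins to autophagy, was at 423, 391 and 345 and 29.1, 17.9 and 112 (log2 fold change -3.31 ± 0.88 (SE), adjusted p = 0.006). GFRA2, the receptor through which neurturin signals to RET, was at 353, 368 and 341 and 26.1, 18.1 and 105 (log2 fold change -3.27 ± 0.64 (SE), adjusted p = 0.000679). CRIP1, a small LIM domain protein, went from 863, 1063 and 851 to 52.6, 66.2 and 175 (-3.44). In each of these 4 genes the third 50 nM array was the highest of its group and below every vehicle array.

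Of the 15 largest falls, others also coded for secreted or matrix proteins. They were EMILIN1 of elastic fibres (-3.14), the secreted olfactomedin family member OLFML3 (-2.89), TNFAIP6, which cross-links hyaluronan (-2.47), and the neuropeptide neurotensin, NTS (-2.78). CSRP1, an actin-binding LIM protein, fell by 2.83, and the adrenergic receptor gene ADRB3 by 2.50. RPL39L (-2.88), the lens crystallin CRYBA2 (-2.75) and the aldosterone synthase CYP11B2 (-2.48) were the rest. CRYBA2 and CYP11B2 were at or under the floor on 2 of the 3 50 nM arrays.

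Textbook lists were read against the shares over all genes, 23.5% higher and 17.7% lower.

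**Figure D2:**
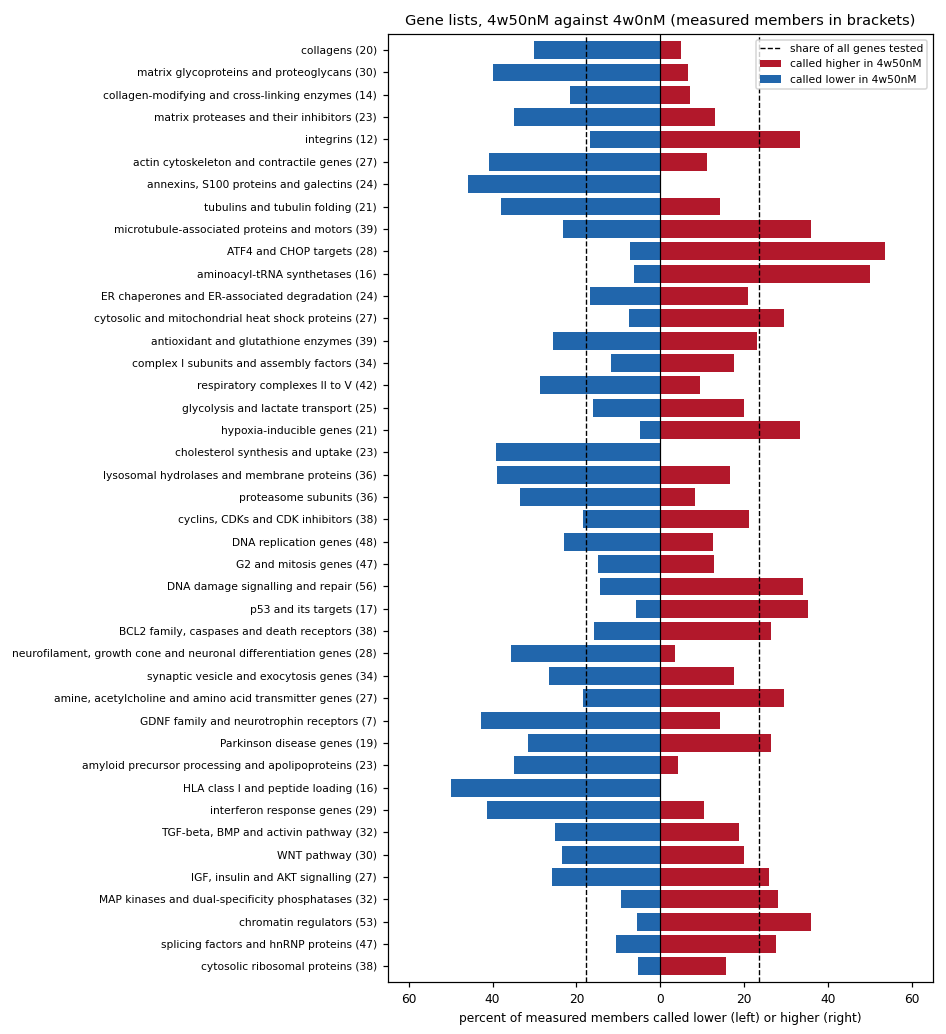
Percentage of the measured members of each of 42 gene lists called higher (red, to the right) or lower (blue, to the left) in 4w50nM than in 4w0nM. Dashed lines mark the shares over all genes tested, 23.5% and 17.7%. ATF4 and CHOP targets, aminoacyl-tRNA synthetases and chromatin regulators extend farther to the right than to the left, and the calcium-binding, HLA, matrix and cholesterol lists extend farther to the left.

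Genes of the extracellular matrix fell more often than they rose. Of 30 matrix glycoproteins and proteoglycans, 12 fell and 2 rose, with a median log2 fold change of -0.27 against 0.02 over all genes. Falls numbered 9 to 14 when any 1 of the 6 arrays or 1w0nM replicate 3 was left out, and rises 0 without 4w50nM replicate 1, 1 without 4w0nM replicate 1, 2 or 3, 4 without 4w50nM replicate 3 and 5 without 1w0nM replicate 3 (6 with the 6 arrays alone). Besides FN1 they were led by TNC, tenascin C, at 298, 324 and 291 with vehicle and 66.8, 59.9 and 186 with 50 nM (-1.75), and by the microfibril protein MFAP2 at 969, 1019 and 987 and 369, 330.0 and 505 (-1.33). The hyaluronan-binding proteoglycan VCAN fell by 0.96. Of 20 collagens, 6 fell and 1 rose, among the falls COL3A1 (-3.32), COL9A2 (-1.31) and COL7A1 (-1.25). The main collagen I genes did not pass the test, with 0.01 for COL1A1 and -0.29 for COL1A2, both named after their values were seen. Collagen falls numbered 3 without 4w50nM replicate 2, and the rise was lost without 4w50nM replicate 1 or 2 and without 4w0nM replicate 1 or 2. PCOLCE, an enhancer that speeds the trimming of procollagen, fell by 1.50.

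Proteases and their inhibitors moved both ways. Of 23, 8 fell and 3 rose. TIMP1, an inhibitor of metalloproteases, dropped from 3369, 3516 and 3493 to 895, 961 and 1658 (-1.62), and the collagen-degrading cathepsin CTSK from 248, 259 and 266 to 78.8, 74.7 and 117 (-1.54). SERPINI1, neuroserpin, rose from 38.4, 46.0 and 24.7 to 207, 221 and 105 (2.26). Among 12 integrins, ITGA4 (1.26) and ITGA6 (1.22) were higher and ITGB5 (-1.14) was lower.

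Small calcium-binding and glycan-binding proteins fell or did not pass the test. Of 24 annexins, S100 proteins, galectins and similar proteins, 11 fell and none rose, with a median of -0.45. Falls numbered 9 to 11 when any 1 of the 6 arrays or 1w0nM replicate 3 was left out, and without 4w50nM replicate 3 there were also 2 rises. LGALS1, a galectin that links cell-surface glycans, was at 679, 728 and 703 and 127, 136 and 157 (log2 fold change -2.34 ± 0.17 (SE), adjusted p = 1.94e-07). The tetraspanin CD9 (-1.75), the LIM protein CRIP2 (-1.28) and the glial calcium-binding protein S100B (-1.27) fell too. Of 27 actin and contractile genes, 11 fell and 3 rose. TAGLN, transgelin, fell by 1.41 and the cross-linker ACTN4 by 0.83.

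Rotenone binds tubulin, and the tubulin genes themselves fell more often than they rose. Of 21 tubulins and tubulin-folding factors, 8 fell and 3 rose, and falls numbered 4 without 4w50nM replicate 1 and 5 without 4w0nM replicate 2. TUBB4A, a neuronal beta-tubulin, was at 302, 402 and 411 with vehicle and 89.9, 86.5 and 134 with 50 nM (log2 fold change -1.86 ± 0.34 (SE), adjusted p = 0.000378). TUBB3, the beta-tubulin that marks neurons, was at 2809, 2573 and 2402 and 1004, 1308 and 1283 (-1.12), and TUBB6 fell by 1.48. The groups did not overlap for any of the 3. Microtubule-associated proteins and motors were mixed, with 14 of 39 higher and 9 lower (9 and 4 without 4w50nM replicate 1). STMN3, a stathmin that sequesters tubulin (-1.85), and TPPP, which promotes tubulin polymerization (at 41.7, 52.8 and 50.1 with vehicle and under the floor on all of the 50 nM arrays, at least 3.00-fold lower), fell. The kinase SLK (1.35), CLASP2, which stabilises growing microtubule ends (1.02), and MAP1B, a microtubule-associated protein of axons (1.00), rose. MAP1B was not called with the mean of its probe sets (0.57, adjusted p = 0.174), and its other probe set was at 0.14.

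The list with the highest share of rises was that of ATF4 and CHOP targets. Of 28, 15 rose and 2 fell, with a median of 0.55. Rises numbered 12 to 16 when any 1 of the 6 arrays or 1w0nM replicate 3 was left out, and falls 1 without 4w50nM replicate 1, 2 or 3 or 4w0nM replicate 1, 2 or 3. CTH, which makes cysteine from cystathionine, was at 168, 155 and 152 with vehicle and 601, 585 and 438 with 50 nM (log2 fold change 1.76 ± 0.20 (SE), adjusted p = 5.58e-06). STC2, a secreted stanniocalcin, went from 103, 100.2 and 92.6 to 361, 239.9 and 335 (1.64), and ASNS, asparagine synthetase, from 609.8, 713 and 677 to 1916, 1872 and 1078 (1.24). In all 3 genes every 50 nM array was above every vehicle array. DDIT3, which encodes CHOP, was at 384, 372 and 346 with vehicle and at 1884, 1971 and 540.2 with 50 nM (log2 fold change 1.78 ± 0.52 (SE), adjusted p = 0.011). The third 50 nM array was far closer to vehicle than the others, and the call was lost without 4w50nM replicate 1 (adjusted p = 0.0628) and without 4w50nM replicate 2 (adjusted p = 0.0596). TRIB3, a pseudokinase induced by CHOP, had the same layout at 513, 547 and 534 and 2267, 1947 and 892 (1.57, adjusted p = 0.0302), and was lost without 4w50nM replicate 1 (adjusted p = 0.124), without 4w50nM replicate 2 (adjusted p = 0.0943), without 4w0nM replicate 1 (adjusted p = 0.0724), without 4w0nM replicate 2 (adjusted p = 0.0637) and without 4w0nM replicate 3 (adjusted p = 0.0687). It was also not called with the replicate number as a block (adjusted p = 0.0512) or with no filter on low signals (adjusted p = 0.081). The mRNA of ATF4 itself did not pass the test (0.26, adjusted p = 0.167), nor did that of the ER chaperone HSPA5 (-0.30, adjusted p = 0.406), and both are named here after their values were seen. SLC1A4, a transporter of alanine, serine and cysteine that is on the same list, went the other way, from 800.5, 819 and 882 to 204, 177 and 360.3 (-1.82).

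Aminoacyl-tRNA synthetases, which load tRNAs with amino acids, rose alongside, with 8 of 16 higher and 1 lower. The number of rises was 4 without 4w50nM replicate 1 or 2, and the fall was lost without 4w50nM replicate 2 or 4w0nM replicate 2. TARS1 went from 1140.1, 1059 and 917 to 2405, 2373 and 1671 (1.04), and CARS1 (0.73) and IARS1 (0.70) rose by less than 2-fold.

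The promoter of CHAC1, an ATF4 target that degrades glutathione, is shown because it holds a sequence to which ATF4 and CHOP are known to bind. It is the stretch chr15:40953221-40953520 on the plus strand of GRCh38.p14, from 250 bases before to 50 after the start of the RefSeq gene, with the element in capitals.
CHAC1: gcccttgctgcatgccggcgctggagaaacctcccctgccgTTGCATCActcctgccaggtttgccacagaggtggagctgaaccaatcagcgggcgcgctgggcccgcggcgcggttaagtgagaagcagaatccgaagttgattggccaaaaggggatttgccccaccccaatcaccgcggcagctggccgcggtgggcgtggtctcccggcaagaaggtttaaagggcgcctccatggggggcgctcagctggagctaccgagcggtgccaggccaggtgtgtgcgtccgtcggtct
CHAC1 was chosen after its value was seen. Its signal was 101, 127 and 108 with vehicle and 229, 220.1 and 211 with 50 nM (log2 fold change 0.98 ± 0.18, adjusted p = 0.000354). The element was searched for as TTGCATCA or TGATGNAAT on both strands. It was present in 2 of the 24 list members with a promoter sequence, CHAC1 and HERPUD1, and in 0.788% of the 7483 promoters of genes tested. It was present in 0.443% of the genes at least 2-fold higher and in 1.45% of those at least 2-fold lower. HERPUD1, which acts in ER-associated degradation, did not pass the test (0.53, adjusted p = 0.251). CCAAT boxes, searched as CCAAT on both strands, were in 15 of the 24 and in 37.4% of all promoters.

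Heat shock, ER and antioxidant genes showed no common direction. Of 27 heat shock proteins, 8 rose and 2 fell (rises 4 without 4w50nM replicate 1, falls 6 without 1w0nM replicate 3). The falls were HSPB8 and HSPB1, both small heat shock proteins, and HSPB1 was at 1913, 1794 and 1692 and 835, 775 and 967 (-1.07). HSPA13, a microsomal member of the HSP70 family, rose from 155, 168 and 179 to 531, 486 and 433 (1.53). Among 24 ER chaperones and degradation factors, ERO1A, which makes disulfide bonds, rose by 1.05 and P4HB, protein disulfide isomerase, fell by 0.90. Of 39 antioxidant and glutathione enzymes, 9 rose and 10 fell (5 rises without 4w50nM replicate 1). HMOX1, the inducible heme oxygenase, was at 432, 431 and 431 with vehicle and 153, 148 and 232 with 50 nM (log2 fold change -1.31 ± 0.22 (SE), adjusted p = 0.00015). CAT, catalase, rose by 0.77 and GSTP1, a glutathione transferase, fell by 0.83.

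Complex I is the target of rotenone. Of its 34 subunits and assembly factors, 6 rose, 4 fell and 24 did not pass the test, and none reached 2-fold. NDUFA5 (899, 983 and 929 against 1623, 1678 and 1545, 0.79), the iron-sulfur subunit NDUFS1 (0.66) and the assembly factor TMEM126B (0.79) were higher. NDUFB2 (-0.58) and NDUFA13 (-0.57) were lower. The call of NDUFA5 was lost with the mean of its probe sets (adjusted p = 0.108). Of 42 subunits of complexes II to V, 12 fell and 4 rose (falls 6 without 4w0nM replicate 2 and 7 without 4w50nM replicate 1, rises 7 without 4w50nM replicate 3). The cytochrome oxidase subunit of muscle, COX7A1, fell by 1.37 from a low signal of 80.4, 43.8 and 73.4, and cytochrome c1, CYC1, by 0.57.

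The list of hypoxia-inducible genes also holds genes of the hypoxia factors themselves, such as HIF1A and EPAS1. Of its 21 genes 7 were higher, a count that stayed at 7 when any 1 of the 6 arrays was left out. Falls, of which there was 1, numbered 0 without 4w50nM replicate 1 or 4w0nM replicate 1 or 3, 3 without 1w0nM replicate 3 and 6 without 4w50nM replicate 3. EPAS1, which encodes HIF-2 alpha, was at 120.1, 138 and 140.2 with vehicle and 612, 494 and 294 with 50 nM (log2 fold change 1.75 ± 0.41 (SE), adjusted p = 0.00275). VEGFA, the vascular growth factor, went from 921, 869.6 and 791 to 2208, 1839.6 and 1634 (1.13), HIF1A from 1074, 1086 and 1164 to 1967, 1913 and 1915 (0.80) and the MYC antagonist MXI1 rose by 1.15. Glycolysis genes moved both ways, with 5 of 25 genes higher and 4 lower. Falls numbered 2 without 4w50nM replicate 1 or 2 or 4w0nM replicate 1 and 11 without 4w50nM replicate 3, and rises 3 without 4w0nM replicate 1 or 3. PKM, pyruvate kinase, fell from 3163, 3163 and 3174 to 1390.0, 1391 and 2544 (-0.90).

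Cholesterol synthesis and uptake genes fell more often than they rose, with 9 of 23 genes down, none up and a median of -0.42. Falls numbered 3 without 4w50nM replicate 2, 4 without 4w0nM replicate 1 and 5 without 4w50nM replicate 1, and 1 gene rose without 1w0nM replicate 3. Fitted on the 6 arrays alone, 14 fell and 3 rose. EBP, a sterol isomerase, was at 1584, 1481 and 1398 with vehicle and 699, 579.8 and 1039 with 50 nM (log2 fold change -0.99 ± 0.23 (SE), adjusted p = 0.00265). PMVK, which phosphorylates phosphomevalonate, was at 668, 604 and 526 and 384, 309 and 451 (-0.66). FDPS, which makes farnesyl diphosphate, was at 1538, 1474 and 1293 and 700.0, 708 and 969 (-0.87). The groups did not overlap for any of the 3, but the call of FDPS was lost without 4w50nM replicate 1 (adjusted p = 0.0625), without 4w50nM replicate 2 (adjusted p = 0.0548) and without 4w0nM replicate 1 (adjusted p = 0.0511).
The promoters of EBP and FDPS are shown because CCAAT boxes were frequent in this list, in 15 of the 21 members with a promoter sequence against 37.4% of all promoters. They are chrX:48521558-48521857 and chr1:155308616-155308915, both on the plus strand of GRCh38.p14, with each CCAAT, or ATTGG on this strand, in capitals.
EBP: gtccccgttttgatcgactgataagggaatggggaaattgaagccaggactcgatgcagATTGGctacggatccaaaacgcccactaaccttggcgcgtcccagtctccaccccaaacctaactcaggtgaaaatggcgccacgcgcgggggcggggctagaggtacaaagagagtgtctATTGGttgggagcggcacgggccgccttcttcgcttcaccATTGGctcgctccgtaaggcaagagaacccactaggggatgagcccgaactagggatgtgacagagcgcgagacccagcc
FDPS: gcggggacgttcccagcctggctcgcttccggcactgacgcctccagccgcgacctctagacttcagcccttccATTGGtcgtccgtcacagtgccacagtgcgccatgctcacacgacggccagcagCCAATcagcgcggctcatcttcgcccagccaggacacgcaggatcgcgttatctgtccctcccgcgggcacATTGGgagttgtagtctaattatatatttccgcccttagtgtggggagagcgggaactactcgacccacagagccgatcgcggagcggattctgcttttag
Each of these windows held 3 such boxes, and that of PMVK held none. The share was also high among G2 and mitosis genes, which had no common direction (29 of 38, 76.3%). CCAAT boxes were no more frequent among the genes that changed at least 2-fold, at 36.8% of those higher and 34.2% of those lower. The 9-base sterol element TCACCCCAC was in 1 of the 21, the promoter of SREBF2.

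Degradation genes fell more often than they rose. Of 36 proteasome subunits, 12 fell and 3 rose, none by 2-fold. Falls numbered 5 without 4w50nM replicate 1, 6 without 4w0nM replicate 2 and 7 without 4w50nM replicate 2 or 4w0nM replicate 3, and 7 with median scaling. PSMC3, an ATPase of the regulatory particle, went from 1516, 1414 and 1416 to 736, 708 and 975 (-0.86). Of 36 lysosomal genes, 14 fell and 6 rose, with falls at 8 without 4w50nM replicate 1 or 4w0nM replicate 1 and 9 without 4w50nM replicate 2 or 4w0nM replicate 2 or 3, and rises at 3 without 4w50nM replicate 1. SMPD1, acid sphingomyelinase, was at 1202, 1207 and 1231 with vehicle and 217, 199.9 and 283 with 50 nM (log2 fold change -2.39 ± 0.27 (SE), adjusted p = 6.96e-06), and of its 2 other probe sets 1 fell by 3.06 and 1 did not pass (-0.16). LAMP2, the lysosomal membrane protein needed for chaperone-mediated autophagy, rose from 367, 406 and 401 to 1019, 706 and 695 (1.02).

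Among cell cycle genes the clearest change was in CDKN1B, which encodes the CDK inhibitor p27. Its signal was 141, 169 and 167 with vehicle and 866, 615 and 661 with 50 nM (log2 fold change 2.16 ± 0.16 (SE), adjusted p = 1.94e-07). RBL2, a pocket protein of the retinoblastoma family, rose by 1.11 on its brightest probe set and was at 0.04 on the other, which did not pass, and CCND1, cyclin D1, fell from 1749, 1733 and 1588 to 869, 828 and 988 (-0.92). The 50 nM and vehicle arrays did not overlap for these 3 genes. The list of 38 cyclins, CDKs and inhibitors was split, with 8 higher and 7 lower (falls 3 without 4w50nM replicate 1 and 4 without 4w50nM replicate 2 or 4w0nM replicate 1 or 2). Replication genes (6 higher and 11 lower of 48) and G2 and mitosis genes (6 higher and 7 lower of 47) had medians of -0.23 and 0.00. The falls among replication genes numbered 3 without 4w50nM replicate 2, 4 without 4w50nM replicate 1 or 4w0nM replicate 1, 5 without 4w0nM replicate 2 and 7 without 4w0nM replicate 3, and the rises 3 without 4w50nM replicate 3 or 4w0nM replicate 1 or 2. Those among G2 and mitosis genes numbered 3 without 4w50nM replicate 1 or 2, 4 without 4w0nM replicate 1, 12 without 1w0nM replicate 3 and 14 without 4w50nM replicate 3, and the rises 3 without 4w0nM replicate 1. RECQL4, a helicase of replication, was at 206, 271 and 247 and 52.9, 39.6 and 101 (-2.00), and CEP57, a centrosomal protein, rose by 1.42.

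DNA damage signalling and repair genes rose more often than they fell, with 19 of 56 higher and 8 lower. Rises numbered 14 to 24 when any 1 of the 6 arrays or 1w0nM replicate 3 was left out, and falls 5 without 4w50nM replicate 2 or 4w0nM replicate 2 or 3. REV3L, the catalytic subunit of a translesion polymerase, was at 118, 144 and 135 with vehicle and 636, 521 and 433 with 50 nM (log2 fold change 1.99 ± 0.14 (SE), adjusted p = 1.94e-07). XPA, which checks lesions in nucleotide excision repair, rose by 1.47, and the checkpoint kinase ATR by 1.13. H2AX, the histone that is phosphorylated at breaks, fell from 1035, 998 and 961 to 256, 189.6 and 584 (-1.71). Its other probe sets were at -1.69 and -0.74, both of them called, and at 0.36, which did not pass. Of 17 genes of p53 and its targets 6 rose, among them GADD45A at 107, 104 and 84.7 and 359.7, 345 and 172 (1.50), the p53 ligase MDM2 (1.15) and its partner MDM4 (1.09). The fall (2 without 1w0nM replicate 3) was that of the death receptor FAS, at 85.7, 74.3 and 76.2 and 36.6, 35.8 and 37.5 (-1.10).

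Apoptosis genes changed in both directions, with 10 of 38 higher and 6 lower (3 without 4w0nM replicate 1). CAST, calpastatin, the inhibitor of calpains, rose from 200.0, 224 and 223 to 933, 835 and 485 (1.75), and CASP8, the initiator caspase of death receptors, from 154, 145 and 150.1 to 353, 335 and 331 (1.18). TRADD, the adaptor of the TNF receptor, fell from 216, 194 and 176 to 101, 71.2 and 84.5 (-1.20). The brightest probe set of BCL2 rose by 1.14, but 2 others fell by 0.69 and 1.01, each of them called, so that no direction is given for the gene. Of 2992 genes with several probe sets tested, 101 had probe sets called in opposite directions, and the others among the named genes were APBB2, CAPN6, RBM25 and TCF7L2. For further named genes, some other probe sets of the same gene did not pass the test. They were near 0 for CASP8 (0.09) and APC (0.11 and, on another, 0.36) and of the opposite sign for VPS13C (-0.34) and NDUFA5 (-0.22). They had the same sign and a smaller size for ITGB5 (-0.29 and -0.90), TRADD (-0.27), MAPK11 (-0.36), TGFB1 (-0.66), LAMP2 (0.51), MAOA (0.39), MAP2K4 (0.48), SLC6A6 (0.49) and B2M (-0.05). APC and LAMP2 each had a further probe set that was called in the direction given for the gene (1.05 and 1.04).

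The list of neuronal differentiation genes, which also holds genes of immature cells and inhibitors of differentiation, had more falls than rises. Its counts thus give no direction for differentiation itself. Of 28 neurofilament, growth cone and differentiation genes, 10 fell and 1 rose, with a median of -0.35. Falls numbered 8 to 12 when any 1 of the 6 arrays or 1w0nM replicate 3 was left out, and rises 2 without 1w0nM replicate 3. DLK1, a Notch ligand relative of immature neuroendocrine cells, was at 411, 366 and 394 with vehicle and 110.5, 113 and 198 with 50 nM (log2 fold change -1.53 ± 0.28 (SE), adjusted p = 0.000315). ID2, an inhibitor of differentiation factors, went from 2901, 3018 and 3017 to 843, 884 and 1752 (-1.45) and the neural stem cell factor SOX2 fell by 1.38. The rise was that of MNX1, a motor neuron homeobox gene, at 50.0, 45.0 and 33.2 and 155, 119 and 127 (1.66). Synaptic and secretory vesicle genes were split, 6 higher and 9 lower of 34. SV2B, a synaptic vesicle protein, fell from 405, 444 and 457 to 103, 109 and 136 (-1.92), and CPE, which trims neuropeptides, rose from 157, 179.8 and 199 to 608, 723 and 493 (1.76). Of 27 transmitter genes 8 rose and 5 fell, with a median of 0.03 (rises 6 to 9 when any 1 of the 6 arrays or 1w0nM replicate 3 was left out, falls 4 to 6 when any 1 of the 6 arrays or 1w0nM replicate 3 was left out). SLC18A3, the vesicular acetylcholine transporter, fell by 1.79. BCHE, butyrylcholinesterase, rose by 1.29, and MAOA, which breaks down monoamines, went from 100.4, 111 and 113 to 297, 277 and 218 (1.28).

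Genes named for Parkinson disease went both ways, with 5 of 19 higher and 6 lower. VPS13C, a lipid transfer protein, was at 373, 359 and 301 with vehicle and 1083, 880.4 and 661 with 50 nM (log2 fold change 1.32 ± 0.21 (SE), adjusted p = 9.35e-05), and DNAJC6, auxilin, at 92.7, 87.3 and 78.2 and 218, 183 and 189 (1.19). ATP13A2, a lysosomal polyamine pump, fell from 208, 186 and 159.6 to 110.2, 84.2 and 103 (-0.90). SYNJ1, a phosphoinositide phosphatase of vesicle recycling, rose by 1.56 on its brightest probe set and was at -0.25 on another that did not pass. With quantile normalization it was at -0.18 (adjusted p = 0.521), and with the mean of its probe sets at 0.66 and not called. Among amyloid precursor processing and apolipoprotein genes, 8 of 23 fell and 1 rose. Falls numbered 8 to 10 when any 1 of the 6 arrays or 1w0nM replicate 3 was left out, and rises 2 without 1w0nM replicate 3. BACE2, a secretase, was at 377, 344 and 356 and 66.8, 47.7 and 104 (-2.37). The adaptor APBB1 fell by 1.85. Clusterin, CLU, an extracellular chaperone, went from 142, 148 and 149.8 to 35.3, 48.7 and 64.6 (-1.61) and apolipoprotein D, APOD, from 282, 269.8 and 241 to 72.3, 101 and 92.1 (-1.59).

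Antigen presentation and interferon genes fell more often than they rose. Of 16 HLA class I and peptide loading genes, 8 fell and none rose, with a median of -0.40 (falls 6 to 9 when any 1 of the 6 arrays or 1w0nM replicate 3 was left out). HLA-G was at 1762, 1875 and 1809 with vehicle and 730.1, 789 and 766 with 50 nM (log2 fold change -1.25 ± 0.13 (SE), adjusted p = 3.91e-06), and HLA-B at 2304, 2025 and 1979.8 and 939.8, 953 and 859.9 (-1.19). The HLA genes are near-identical in parts, so that their probe sets cannot be taken as independent. B2M, the light chain, was at 4871, 4744 and 4301 and 3957, 3941 and 3782 (-0.25), a change lost without 4w0nM replicate 1 (adjusted p = 0.0707) and without 4w0nM replicate 2 (adjusted p = 0.0559), with quantile normalization and with median scaling. Of 29 interferon response genes, 12 fell and 3 rose. IFI6 (-1.10) and OAS3 (-1.05) were lower, and the DNA sensor IFI16 was higher at 383, 449 and 450.0 and 1230.1, 1217 and 842 (1.34).

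Signalling lists were split, and a few ligands and receptors stood out. TGFB1, transforming growth factor beta 1, was at 1707, 1774 and 1715 with vehicle and 743, 619 and 865 with 50 nM (log2 fold change -1.24 ± 0.17 (SE), adjusted p = 3.28e-05), among 8 genes lower and 6 higher of 32 in that pathway. IGFBP4, which binds insulin-like growth factors, went from 826, 962 and 913 to 161, 154 and 361 (-2.11). IRS1, the insulin receptor substrate, rose by 1.32 and the receptor IGF1R by 1.05. In the WNT pathway (6 higher and 7 lower of 30) the destruction complex protein APC rose from 192, 178 and 177 to 544, 398 and 519.8 (1.41), and the secreted DKK3 (-1.55) and the factor TCF7L1 (-1.58) fell. Of 32 MAP kinase genes 9 rose and 3 fell (falls 5 without 4w50nM replicate 3), among them MAPK9 (1.07) and MAPK11 (-1.34).

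Chromatin regulators rose more often than they fell. Of 53 chromatin regulators, 19 rose and 3 fell, with a median of 0.20 (rises 14 to 20 when any 1 of the 6 arrays or 1w0nM replicate 3 was left out, falls 5 without 1w0nM replicate 3). The histone deacetylase HDAC9 was at 107, 127 and 125 with vehicle and 554, 577 and 307 with 50 nM (log2 fold change 1.95 ± 0.26 (SE), adjusted p = 2.34e-05). CHD7, a chromatin remodeller, went from 94.6, 86.7 and 96.3 to 380.4, 355 and 290.5 (1.88), and HDAC4 rose by 1.49. The share of rises among 47 splicing factors, 27.7%, was near that over all genes. Of these factors 13 rose and 5 fell (falls 1 without 4w50nM replicate 2, 2 without 4w50nM replicate 1 or 4w0nM replicate 2 and 3 without 4w0nM replicate 1 or 3). The splicing kinase CLK1 rose from 128, 152 and 158 to 343, 315 and 379.8 (1.25) and PNISR by 1.15. The 38 cytosolic ribosomal proteins had a median of -0.01, and none of them was 2-fold higher or lower.

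Markers of other cell types were examined beside these genes. AIF1 was the only rise among 7 measured markers of macrophages and microglia, CD74, a chaperone of antigen presentation, fell (-1.40, with 1 more fall without 1w0nM replicate 3), and CD14, CSF1R, LYZ and TYROBP were below 50 on all 18 arrays. FABP7 rose while the other Schwann and glial genes S100B (-1.27) and NGFR (-1.14) fell, the call of NGFR being lost without 4w50nM replicate 1 (adjusted p = 0.0614) and without 4w50nM replicate 2 (adjusted p = 0.056), and SOX10 was below 50 on every array. The summed signal of the 7 macrophage markers was 802 to 861 on the vehicle arrays and 792 to 1132 on the 50 nM arrays. Of 15 fibroblast and mesenchymal markers 9 fell and none rose, with a summed signal of 9398 to 9728 and 5423 to 5877. TWIST1, a factor of mesenchymal cells, was at 2141, 2043 and 1987 and 438, 449 and 770.4 (-1.95). These markers include matrix genes of the lists above, and their part in the counts of those lists was not tested. Of 6 epithelial markers 2 fell, with a summed signal of 3423 to 3753 and 1752 to 2730. Of 14 Ewing family markers 6 fell and none rose, led by CAV1 at 4836, 4716 and 4836 and 1442, 1146 and 3208 (-1.46), whose call was lost without 4w50nM replicate 2 (adjusted p = 0.055). Another CAV1 probe set was at -2.49 and was called.

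Properties of the genes themselves went with the direction of change. The first was the length of the gene on the chromosome, taken from RefSeq on GRCh38.p14 for 9158 of the 9162 genes. The genes were split into 4 groups of equal size. Of the shortest genes, up to 12.4 kb, 11.9% were called higher and 26.9% lower. Of the longest, above 75.4 kb, 34.8% were called higher and 11.4% lower. In the groups between them 19.0% and 28.4% were called higher and 19.0% and 13.7% lower. The genes at least 2-fold higher had a median span of 65.8 kb, those at least 2-fold lower of 18.8 kb, and all genes of 30.8 kb. Across genes, which are not independent, Pearson's r between log2 span and log2 fold change was 0.22. The GC content of 7483 promoters showed no such gradient, with 23.7% called higher in the group of lowest GC and 25.5% in that of highest GC. With 5 nM at 4 weeks the median log2 fold change was -0.12 in the shortest and 0.18 in the longest genes. That comparison shares the 4w0nM arrays. At 1 week with 50 nM, on other arrays, the medians were 0.09 and -0.05.

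**Figure D3:**
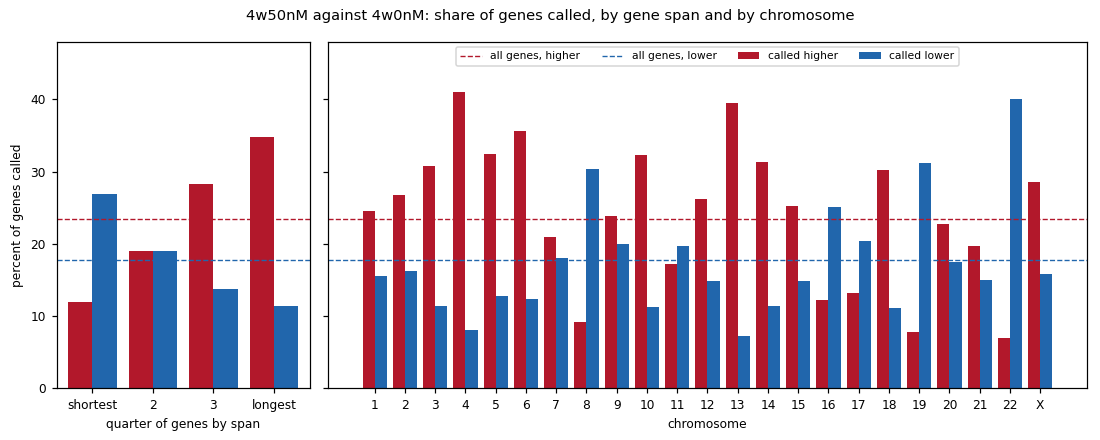
Percentage of genes called higher (red) or lower (blue) in 4w50nM than in 4w0nM, in 4 groups by gene span (left) and by chromosome (right). Dashed lines mark the shares over all genes, 23.5% and 17.7%. The share of rises grows from 11.9% to 34.8% from the shortest to the longest genes, and chromosomes 8, 11, 16, 17, 19 and 22 hold more falls than rises.

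The second was the chromosome. On chromosome 8, 109 of 359 genes (30.4%) were lower and 33 (9.19%) higher, with a median of -0.27. On chromosome 22, 93 of 232 (40.1%) were lower and 16 higher, and on chromosome 19, 189 of 605 (31.2%) were lower and 47 higher. Chromosomes 4 (127 of 309 genes higher, 25 lower), 13 (66 of 167 higher, 12 lower) and 6 (178 of 500 higher, 62 lower) leaned the other way. The median span of the genes differed between these chromosomes, at 15.5 kb on chromosome 19, 29.2 kb on 22, 38.7 kb on 8, 21.9 kb on 6 and 58.6 kb on 13. Chromosome 8 thus held more falls than rises with longer genes than the 30.8 kb of all genes, and chromosome 6 more rises with shorter ones. In 219 blocks of neighbouring genes, 35 to 43 genes each, the block median ran from -0.63 to 0.65. The 3 blocks from REEP4 to INTS9, from HMBOX1 to ZMAT4 and from CYP11B1 to C8orf33 on chromosome 8 had medians of -0.57, -0.44 and -0.63. The block from RALGAPA1 to GCH1 on chromosome 14 had 25 of 39 genes higher and 1 lower.

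The groups 4w50nM and 4w5nM were also compared directly, a contrast in which either can stand away from vehicle. At least 2-fold, 214 genes (2.34% of those tested) were higher and 277 (3.02%) lower with 50 nM than with 5 nM. In all 1596 genes (17.4%) were called (787 without 4w50nM replicate 1, 946 without 4w50nM replicate 2 and 958 without 4w5nM replicate 2). With the methods' t-test after Benjamini-Hochberg the 2-fold counts were 38 and 71. The mean log2 signals of the hybridization controls were 8.96 ± 0.05 with 50 nM and 8.87 ± 0.21 with 5 nM.

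The leading genes of the comparison with vehicle differed in how they stood at 5 nM. CDKN1B was at 565, 421 and 553 with 5 nM, and its 4w50nM and 4w5nM levels differed by 0.47 ± 0.16 (SE). NPTX2 was at 29.8, 67.5 and 10.7 with 5 nM and DZANK1 at 97.4, 123 and 203, and neither differed between the doses by the test (adjusted p = 0.662 and 0.65). LGALS1 was lower with 5 nM, at 83.1, 73.1 and 67.6, than with 50 nM, by 0.90 (adjusted p = 0.00211). FN1 was at 977, 877 and 1355 with 5 nM, GFRA2 at 504, 591 and 732 and HSPB8 at 755, 703 and 946. HSPB8 differed most between the doses (log2 fold change -4.36 ± 0.88 (SE), adjusted p = 0.00279), followed by GFRA2 (-4.03), ZIC1, a zinc finger factor of neural crest and cerebellum (-3.82), and COL3A1 (-3.81). The largest difference upward was that of AIF1, at 52.1, 30.3 and 33.7 with 5 nM (log2 fold change 3.67 ± 0.51 (SE), adjusted p = 0.000357), followed by EPAS1 (3.23) and LOXL1 (2.76).

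Lists were also counted at 5 nM against the same vehicle arrays, where 18.6% of all genes were called higher and 14.3% lower. Of the 28 ATF4 and CHOP targets 15 were higher and 1 lower with 5 nM, of the 24 annexins, S100 proteins and galectins 1 and 11, and of the 56 DNA damage genes 19 and 5, beside 15 and 2, 0 and 11, and 19 and 8 with 50 nM. Of the 23 cholesterol genes 1 was higher and 2 lower with 5 nM, and of the 36 proteasome subunits 4 and 1, beside 0 and 9, and 3 and 12 with 50 nM. The summed signal of the 15 fibroblast and mesenchymal markers was 7358 to 7879 with 5 nM, between the ranges of vehicle and 50 nM.

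For some genes 5 nM and 50 nM lay on opposite sides of vehicle or only 5 nM stood away from it. PTPRC, the leukocyte phosphatase CD45, was at 451, 432 and 369 with vehicle, 1338, 1544 and 1567 with 5 nM and 198, 164 and 267 with 50 nM. It did not pass the test against vehicle (-1.01, adjusted p = 0.218), while a second probe set did (-2.29, adjusted p = 0.0169), and the doses differed by -2.85 (adjusted p = 0.00548). EPAS1 was at 62.0, 26.8 and 64.7 with 5 nM, below vehicle, and above it with 50 nM. LOXL1, a cross-linking enzyme of elastin, was at 256, 237 and 251, 46.5, 30.6 and 33.3 and 274, 231 and 235, and SELENBP1, a selenium-binding protein, at 174, 201 and 187, 56.1, 48.3 and 38.4 and 209.9, 216 and 249.7. Both were low with 5 nM and close to vehicle with 50 nM (-0.01 and 0.26, adjusted p = 0.983 and 0.589). DCX, doublecortin of migrating neurons, was 2.55 higher with 50 nM than with 5 nM and did not pass against vehicle (0.87, adjusted p = 0.0655).

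The same set of genes separated an array of another group. The third 1w0nM array, labelled 1 week of vehicle, was at 36.9 for FN1, where the other 1w0nM arrays were at 576 and 954. For COL3A1 the 3 arrays were at 774, 1248 and 43.9, for GFRA2 at 294, 534 and 45.1, for AIF1 at 223, 95.9 and 737 and for ATP8A1 at 176, 111 and 632. On each of these genes the third array lay on the side of the 4w50nM group, away from the other 1w0nM arrays. Of the 277 genes at least 2-fold lower with 50 nM than with 5 nM, 247 (89.2%) were at least 2-fold lower on this array than the mean of the other 1w0nM arrays, against 8.24% of all genes tested. Of the 214 that were higher, 78 (36.4%) were at least 2-fold higher on it, against 1.84%. Neither 4w50nM nor 4w5nM includes this array. Across the 9162 genes r was 0.71, given as a description since genes are not independent. Of the 390 genes at least 2-fold below vehicle 41.5% were at least 2-fold lower on this array, and of the 527 above it 8.35% were at least 2-fold higher. On chromosome 8 its median difference was -0.68, where that of 4w50nM minus 4w5nM was -0.50 and that of 4w5nM minus 4w0nM 0.31. Over the 219 blocks of neighbouring genes, r with this array was 0.88 for 4w50nM minus 4w5nM and 0.38 for 4w50nM minus 4w0nM. On chromosome 3 the block from SPCS1 to PPP4R2 was at 0.45 on this array and 0.60 in 4w50nM minus 4w5nM. The block from MAP3K13 to RPL35A was at -0.76 and -0.51. What sets this array apart was not tested, and neither was an exchange of samples. Values that use the 1w0nM group hold only as far as its labels do.

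**Figure D4:**
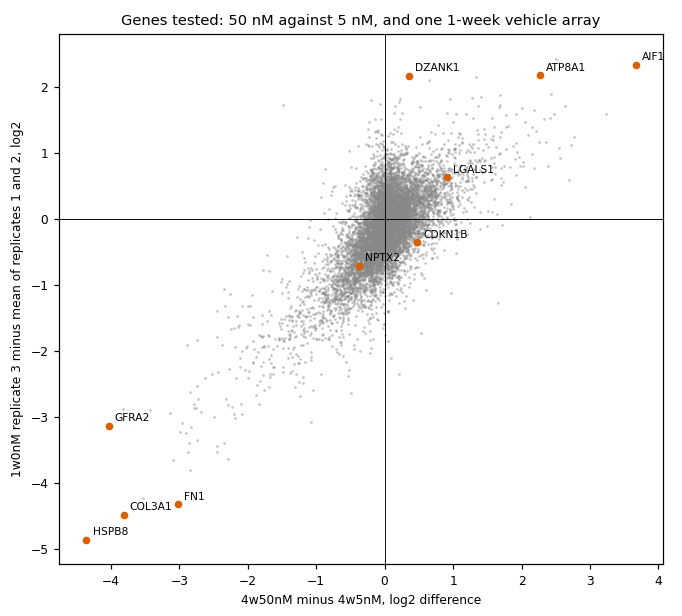
Each point is a gene: log2 difference between 4w50nM and 4w5nM (x axis) and between 1w0nM replicate 3 and the mean of the other 1w0nM arrays (y axis), groups that share no array. Orange points mark named genes. FN1, COL3A1, HSPB8 and GFRA2 lie far to the lower left, AIF1 and ATP8A1 to the upper right, and NPTX2, CDKN1B and LGALS1 near the centre, with DZANK1 above it (r = 0.71 over 9162 genes).

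The spread of this group enters the estimate that all comparisons share. Without this array PTPRC (adjusted p = 0.000579), ZIC1 (0.00117) and DCX (0.0299) were called against vehicle at the same log2 fold changes, and no named gene lost its call. The 2-fold counts of 4w50nM against 4w0nM were 528 and 397 without it, and those against 4w5nM were 216 and 294.

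Whether the response to 50 nM differed between the weeks was tested as the difference between the effect at 4 weeks and that at 1 week. The effects differed by 2-fold or more and were called in 1256 genes (13.7%) towards higher and 907 (9.9%) towards lower at 4 weeks. Of the 527 genes at least 2-fold above vehicle at 4 weeks, 256 were called lower and 3 higher in 1w50nM than in 1w0nM, where over all genes 11.3% were called lower and 8.75% higher. Of the 390 below vehicle, 96 were called higher and 1 lower at 1 week. Of the 28 ATF4 and CHOP targets, 15 higher and 2 lower at 4 weeks, 0 were called higher and 16 lower at 1 week. Of the 24 annexins, S100 proteins and galectins 10 were called higher and 1 lower at 1 week. Among the 56 DNA damage genes these counts were 1 and 11. The comparisons of both weeks share no array.

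The vehicle groups of the weeks differed in several of these genes. NPTX2 was at 42.8, 6.49 and 15.7 on the 1w0nM arrays, 157, 165 and 256 on the 1w50nM arrays, 303, 301 and 286 on the 4w0nM arrays and, as above, at 18.2, 12.2 and 50.7 on the 4w50nM arrays. FABP7 was at 267, 137 and 205, 40.6, 46.3 and 29.5, 32.5, 44.2 and 38.5 and 245, 263 and 459.9 in the same order. For both genes the 1w50nM and 4w0nM groups were close to each other, and the 1w0nM group was on the side of 4w50nM. Counted on group means, 4w0nM differed at least 2-fold from 1w0nM in 139 genes, from 1w5nM in 6 and from 1w50nM in 80, and 4w50nM differed from 4w0nM in 925 and from 1w0nM in 653. Whether samples of different weeks were exchanged was not tested. A difference in the response to 50 nM and a difference between the vehicle groups cannot be told apart in this contrast.

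The 16 genes with the largest differences between weeks included 8 in each direction. SLC6A15 was at -2.54 ± 0.27 (SE) at 1 week and 2.44 ± 0.27 at 4 weeks, FABP7 at -2.36 and 3.02, and LGALS1 at 2.58 and -2.34. G0S2, an inhibitor of triglyceride lipase, was at 2.37 and -2.45, and MANEA, a Golgi mannosidase, at -1.79 and 1.66. Choosing genes by the difference of the effects favours opposite signs at the 2 times. In 11 of the 16 genes the effect was called in opposite directions. The exceptions were ATP8A1, COL3A1, HSPB8, CRIP1 and FN1, which were not called at 1 week (adjusted p = 0.453, 0.306, 0.215, 0.0669 and, at the threshold, 0.05). For 3 of these the sign at 1 week rested on 1w0nM replicate 3. Without that array COL3A1 was at -0.33, HSPB8 at -0.05 and ATP8A1 at 0.23 at 1 week, each on the same side of 0 as at 4 weeks.

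**Figure D5:**
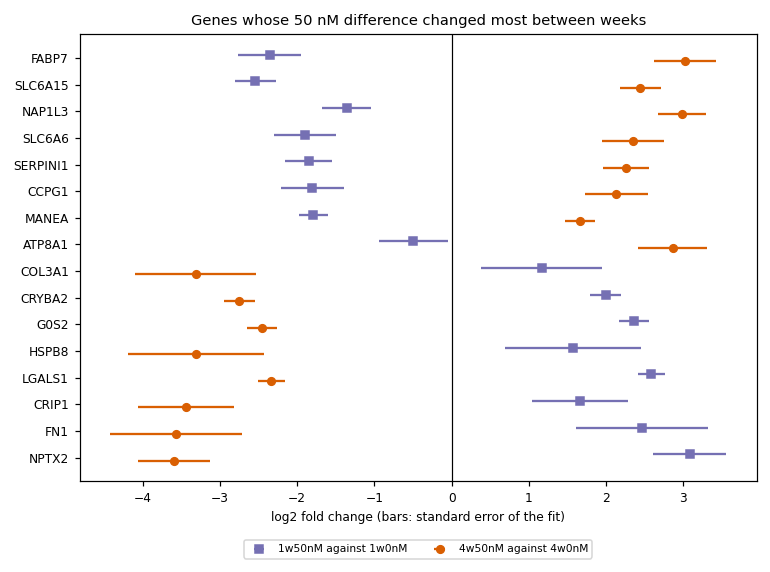
Log2 fold change with 50 nM at 1 week (squares) and at 4 weeks (circles) for the 16 genes whose effect differed most between weeks; bars are the standard error of the limma fit. All 16 lie on opposite sides of 0 at the 2 times, though for COL3A1, HSPB8 and ATP8A1 not without 1w0nM replicate 3, from NPTX2 (3.08 and -3.60) to FABP7 (-2.36 and 3.02). Their choice by this difference favours such a layout.

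Of the 16 genes that the study also followed by qRT-PCR, 13 were among the genes tested, and the rest were not analysed here. The study selected them separately for each treatment group at 4 weeks, so that not all of the 16 were measured by qRT-PCR with 50 nM. For those that were, the paper reports the same direction by both methods, and a similar size of change for most of them. It names exceptions in size. Those of FN1, HSPA1A and GFRA2 differed widely between arrays and qRT-PCR, and that of VEGFA was somewhat larger in qRT-PCR. The counts below are of the arrays alone and were not compared with the qRT-PCR values. At 4 weeks with 50 nM, 9 of the 13 were called, 6 of them higher and 3 lower. Those higher were DDIT3 (1.78), SYNJ2 (1.53), IFI16 (1.34), VEGFA (1.13), IGF1R (1.05) and MAP2K4 (0.92), and those lower were FN1, GFRA2 and APOE. APOE, the main lipid carrier of the brain, was at 539, 679 and 779 with vehicle and 467, 458 and 211 with 50 nM (-0.89), and its call was lost without 4w50nM replicate 3 (adjusted p = 0.108) and without 4w0nM replicate 3 (adjusted p = 0.0713). Other APOE probe sets were at -1.53 and -1.47, both of them called. The 4 that did not pass were PTPRC, LOXL1 and SELENBP1, described above, and the chloride channel family gene CLIC2, at 69.7, 91.7 and 84.8 and 161, 167 and 41.2 (0.34, adjusted p = 0.524). For CLIC2 the third 50 nM array lay below all vehicle arrays and the others above them.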

How the data were processed

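RNA of SK-N-MC cells was hybridized to HG-U133A arrays, 1 per sample and 3 per group. The authors deposited linear intensity values, dChip model-based expression indexes, in 1 table of 18 columns and 22283 probe sets. How they were normalized between arrays is not given in the sources used here, and no scanner files were used. Precision is limited by the number of arrays. Per the design text and the methods, the arrays of a group come from 3 experiments, with 5 dishes pooled in each. The labels do not say whether a replicate number marks an experiment.

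Groups were taken from the sample labels. Signals under 16 were set to 16 and log2 values taken. Probe sets with 1 gene in the platform annotation that reached a signal of 50 on 3 or more arrays entered the tests, and the one with the highest mean represented its gene, which left 9162 genes. limma 3.58.1 (R 4.3.3) was fitted to all 18 arrays with an intensity trend, with 12 residual and about 5.71 prior degrees of freedom, and p-values were adjusted by Benjamini-Hochberg over all genes. On simulated data of this design it found 32% of genes changed 1.5-fold, 87% of those changed 2-fold and 99.5% of those changed 4-fold, among 200 changed genes each. The simulated errors were independent between genes. In the data 3782 genes were called and some arrays deviated over many genes together, so these shares need not hold for them. In 4w50nM against 4w0nM, the text names the 15 largest called rises and falls, up to 6 called genes of each list and the genes the study followed by qRT-PCR together with B2M. For the comparisons with 5 nM and with 1 week it names the 8 largest differences each way, and other names are marked. The members and the 42 gene lists and 8 marker lists were chosen with earlier results of these data known. Promoters are RefSeq sequences on GRCh38.p14, found by symbol for 7483 genes. Alternatives were other floors, filters, scalings, probe set rules, variance models, the study methods' t-test, a replicate block and leaving out each array.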

Additional observations from a re-analysis of the deposited data

Results flagged for a closer look

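The effect of 50 nM on 2163 genes differed between 4 weeks and 1 week by 2-fold or more (limma's test of the difference of the effects, adjusted p below 0.05). The differences below are the effect at 4 weeks minus that at 1 week, on the log2 scale, for the 8 genes farthest in each direction.

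Towards lower at 4 weeks, NPTX2 differed by -6.68 and FN1 by -6.03. CRIP1 differed by -5.10, LGALS1 by -4.92, HSPB8 by -4.89 and G0S2 by -4.82. CRYBA2 differed by -4.74 and COL3A1 by -4.48. Towards higher, FABP7 differed by 5.38, SLC6A15 by 4.98 and NAP1L3 by 4.34. The taurine transporter SLC6A6 differed by 4.25, SERPINI1 by 4.11 and CCPG1, a receptor for the removal of the endoplasmic reticulum by autophagy, by 3.93. MANEA differed by 3.45 and ATP8A1 by 3.36. All 16 kept their direction and their call when any 1 of the 12 arrays of the contrast was left out, but some sizes did not hold. Without 1w0nM replicate 3 the difference was -4.59 for FN1, -3.97 for CRIP1, -3.26 for HSPB8, -2.98 for COL3A1 and 2.64 for ATP8A1. The 1w0nM arrays lay on the side of the 4w50nM arrays for NPTX2 and FABP7, and the part of that difference between the vehicle groups in these values was not tested.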

How the results depend on the processing

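Against vehicle, the counts of 527 genes higher and 390 lower at least 2-fold became 823 and 648 when every probe set was counted. With the replicate number as a block they were 525 and 389. Same-numbered 4w0nM and 4w50nM samples did not deviate together (r = 0.19, -0.10 and -0.06 over genes), so the number was not taken as a pairing. Rises made up 57.5% of the 2-fold calls, 50.7% after quantile normalization (438 and 426) and 64.0% after median scaling (614 and 345). Without 1 array the counts ran from 407 to 674 and from 342 to 474, the first at its lowest without 4w50nM replicate 1. Against 5 nM, 214 higher and 277 lower became 434 lower with every probe set, and 38 higher and 71 lower by the methods' t-test after Benjamini-Hochberg, by which AIF1, EPAS1, GFRA2 and ZIC1 were no longer called. With the block they were 207 and 266, and without 1 array 160 to 255 and 189 to 320. Called genes numbered 1596, 3773 with array weights and 2364 without 1w0nM replicate 3, an alternative chosen after seeing the data. Between weeks, 1256 higher became 2079 with every probe set, 1251 higher and 899 lower with the block, and 1144 to 1439 higher and 862 to 1021 lower without 1 array. SYNJ1 turned with quantile normalization (-0.18), and BCL2 (-0.19) and CAPN6 (0.26) with the mean of their probe sets; the cause was not tested, and for BCL2 and CAPN6 the probe sets disagree. Of the 290 named genes called against vehicle, 97 lost the call in at least 1 alternative and 51 without 1 array. With the 6 arrays alone, falls numbered 14 among cholesterol genes, 10 among ER chaperones, 7 among heat shock proteins and complex I genes, 17 among replication genes, 12 among G2 and mitosis genes, 5 among MAP kinase genes and chromatin regulators, 3 among hypoxia genes and 2 among p53 genes. Rises numbered 10 among G2 and mitosis genes, 6 among matrix glycoproteins, 5 among proteasome subunits, 3 among cholesterol and amyloid genes, 2 among collagens and differentiation genes and 1 among annexins and similar proteins.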
